A study of Mus musculus with 9 samples.

Results

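Feedback genes of the MAP kinase cascades were compared in a mouse fibroblast line between control cells, cells after 1 h of MLKL dimerization and cells after 6 h of washout. The set held 10 genes: the MAP kinase phosphatases Dusp1, Dusp2, Dusp4, Dusp5, Dusp6, Dusp8, Dusp10 and Dusp16, and the Sprouty genes Spry2 and Spry4. They were listed by symbol, but with earlier results of these data known. All 10 were measured, out of 22180 genes in all, and each was read from its probe set of highest mean over the 9 arrays. RNA came from hMLKL1-181-2Fv-NIH3T3 cells, mouse NIH3T3 fibroblasts that carry part of human MLKL joined to Fv domains, and every group carried this fusion. MLKL is the executioner pseudokinase of necroptosis, which opens the plasma membrane, and the compound B/B makes Fv domains pair, so that the fusion protein dimerizes. There were 3 arrays in each of 3 groups: control cells, cells sorted for annexin V (AnnV+, which marks phosphatidylserine on the cell surface) after 50 nM B/B for 1 h, and cells treated and sorted likewise and then kept for 6 h of washout. The washout is given as 3000 nM with no compound named. Sorting and harvest of the control cells are not described, so against control the effects of dimerization, sorting and time cannot be told apart. Between 1 h and washout, the effects of the washout, of its unnamed compound and of the further 6 h cannot be told apart either. Nothing says whether the line is 1 clone or whether the arrays of a group came from separate cultures, and p-values measure only the spread between these samples, which may be technical.

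MAP kinases such as ERK, JNK and p38 are switched on by phosphorylation of a threonine and a tyrosine in their activation loop. MAP kinase phosphatases are dual-specificity enzymes that remove both phosphates, and many of their genes are themselves induced by the kinases they switch off. Sprouty proteins act further up, where they dampen signalling from receptor tyrosine kinases to ERK. In fibroblasts these genes belong to the delayed brake on responses to growth factors and stress.

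Levels are log2 probe set values as deposited, where base 2 was inferred from the values, and array medians lay between 4.60 and 4.68. Calls rest on limma with all 9 arrays in 1 fit and a Benjamini-Hochberg adjusted p under 0.05 over all genes. None of the 10 genes lay among the lowest 30% of genes by mean. Deposited values repeat exactly between arrays, in 3.28% to 4.96% of probe sets for any pair of arrays. Over the 9 arrays, 41.7% of probe sets hold at least 1 repeated value, and so do 3 of the 10 genes, Dusp2, Dusp8 and Dusp16. Of 11 measured fibroblast markers, 0 lay in the lowest 30%, and their mean level was 9.9655 to 9.9958 on control arrays, 10.02 to 10.04 at 1 h and 9.56 to 9.59 after washout, with 0 called at 1 h (5 higher and 2 lower by limma at unadjusted p under 0.05) and 2 higher and 7 lower after washout against control. Among the other markers, 5 of 10 for leukocytes, 1 of 7 for epithelium and 2 of 7 for endothelium lay in the lowest 30%. These included the pan-leukocyte gene Ptprc (control mean 3.39) and the epithelial adhesion gene Epcam (3.46), but not the macrophage genes Cd68 (7.78) and Cd14 (7.83) or the epithelial genes Krt8 (5.90) and Cdh1 (5.59), on the log2 scale. The mean level of 10 leukocyte markers was 4.95 to 4.98, 5.11 to 5.17 and 5.08 to 5.09 in the same order of groups, with 4 called higher and 0 lower at 1 h, among them Cd79a at 0.70, Cd14 at 0.61 and Cd68 at 0.51 (log2 difference), and 1 higher and 2 lower after washout against control. For 7 epithelial markers the mean level was 4.79 to 4.88, 4.82 to 4.90 and 4.80 to 4.82, and for 7 endothelial markers 4.42 to 4.46, 4.42 to 4.59 and 4.47 to 4.58. The part of these markers in the results was not tested.

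After 1 h of B/B, 6 of the 10 genes were called higher than in control and 0 lower, while 2.89% of all 22180 genes were called in this comparison, 1.01% higher and 1.88% lower. That background of 642 genes fell to between 323 and 422 when any control array or B/B 1 h replicate 1 or 2 was left out, and it was lowest, at 149 higher and 174 lower (1.46%), without control replicate 3. In each of these runs 4 of the 10 genes were called higher. Without B/B 1 h replicate 3 the background was 691 genes, and again 4 of the 10 were called higher. By limma at unadjusted p under 0.05, 6 genes were higher and 1 lower, Spry4. The median log2 difference of the 10 genes was 0.20, against 0.0042 over all genes. Because the 10 genes were chosen with earlier results known, the values beside all genes are descriptions and not a test of the set. The 6 were Dusp1, Dusp4, Dusp6, Dusp8, Dusp10 and Spry2, with fold changes from 1.14 for Dusp4 to 1.94 for Dusp1, and 0 of them reached 2-fold. After washout, 3 genes stood higher than control (Dusp4, Dusp6 and Spry2) and 4 lower (Dusp1, Dusp2, Dusp5 and Dusp8), where 26.2% of all genes were called, 14.5% higher and 11.7% lower. Between 1 h and washout, 1 gene was called higher (Dusp4) and 4 lower (Dusp1, Dusp6, Dusp8 and Dusp10), where 28.6% of all genes were called, 16.6% higher and 12.0% lower. The comparisons share arrays, so their calls are given side by side and are not independent of each other.

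**Figure D1:**
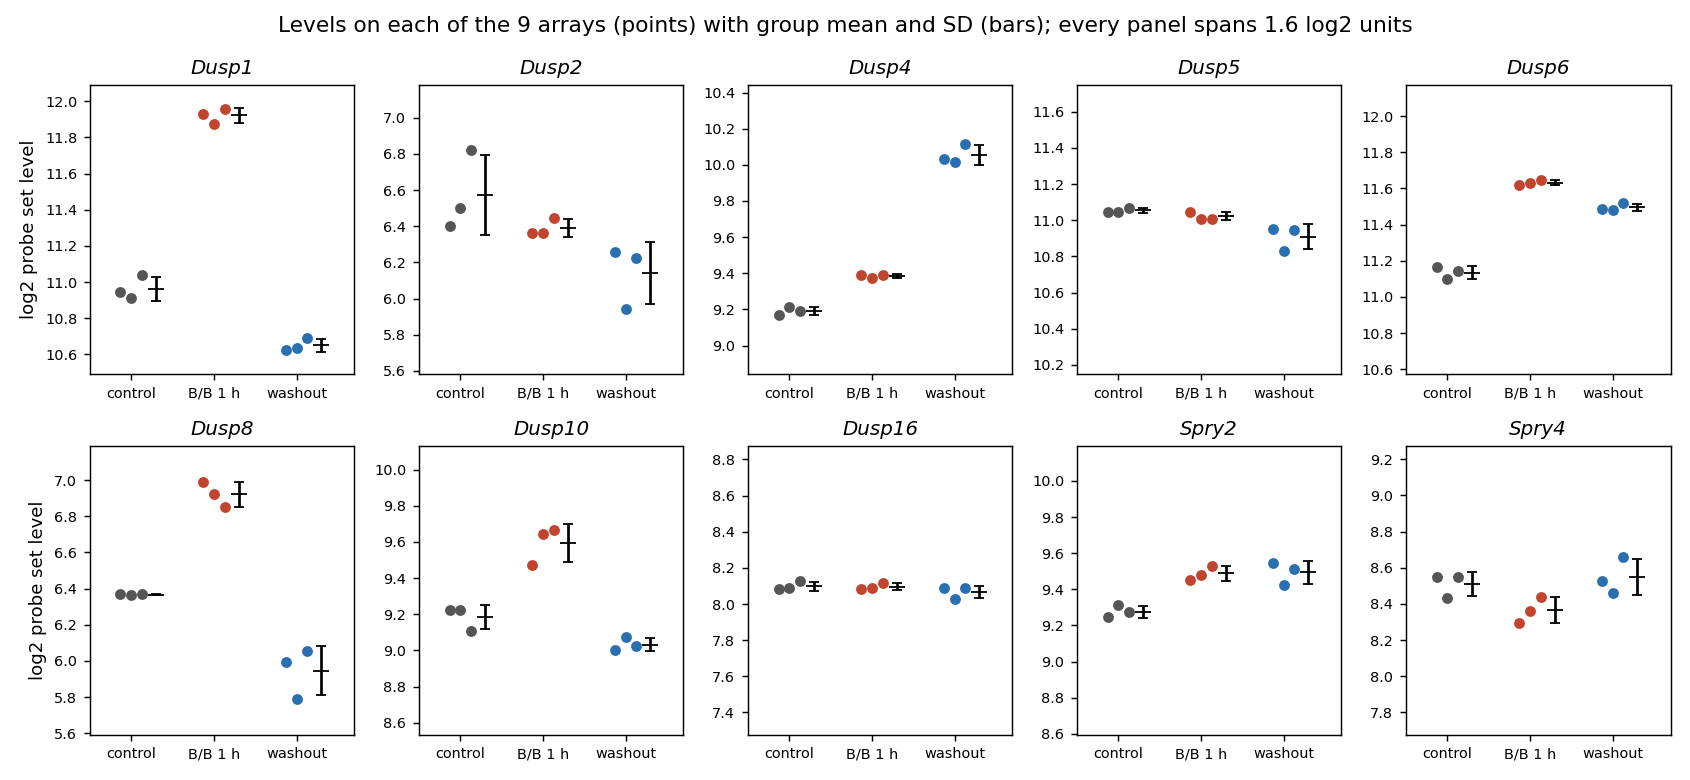
Log2 probe set level (y axis) of each of the 10 genes on each array, by group (x axis), with the group mean and SD (n = 3) to the right of the points; every panel spans the same range. Dusp1 and Dusp8 peak at 1 h and end below control, Dusp4 is highest after washout at 10.05, and Dusp16 stays between 8.03 and 8.12 on all 9 arrays.

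Promoter sequences are shown for 4 of the genes, picked with their responses and the elements of their proximal promoters in view. A link between elements and responses was not tested. RefSeq promoter windows on GRCm38.p6, 250 bases before to 50 after the gene's start, were found for 8 of the 10 genes (Dusp4 and Spry4 had no entry). The letters TGACGTCA, the full cAMP response element to which CREB and ATF factors bind, were searched on both strands. They occurred in 2 of the 8 windows, those of Dusp1 and Dusp8, and in 1.79% of 32851 windows of 300 bases. These windows belong to 27025 genes, so some genes have several. Counted per gene among the tested genes with a promoter entry, the share was 2.65% (450 of 16990). Dusp1 held 1 copy, with its first base at -143 counted from the start, and Dusp8 held 2, at -107 and -63. Dusp5 held 2 CArG boxes, the element of serum response factor, at -82 and -72, with 1 match to an NF-kB site at -90 that overlaps the first. The CArG box and the NF-kB site were each found in 1.63% of windows. In Dusp6, and in Dusp10, whose sequence is not shown, no searched motif was found, which says only that these letters are not in their windows. Dusp6, Dusp10 and Spry2 were called higher at 1 h without the full cAMP response element in their windows. The 250 bases before the start are printed 5′ to 3′ with every motif match in capitals. They lie at chr17:26508473-26508722 on the minus strand for Dusp1, chr7:142095285-142095534 on the minus strand for Dusp8, chr19:53528895-53529144 on the plus strand for Dusp5 and chr10:99262981-99263230 on the plus strand for Dusp6.
Dusp1: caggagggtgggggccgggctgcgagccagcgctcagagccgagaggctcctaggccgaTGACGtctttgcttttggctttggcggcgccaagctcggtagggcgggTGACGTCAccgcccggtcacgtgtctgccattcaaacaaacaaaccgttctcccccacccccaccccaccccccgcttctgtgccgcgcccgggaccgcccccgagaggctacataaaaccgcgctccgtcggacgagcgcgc
Dusp8: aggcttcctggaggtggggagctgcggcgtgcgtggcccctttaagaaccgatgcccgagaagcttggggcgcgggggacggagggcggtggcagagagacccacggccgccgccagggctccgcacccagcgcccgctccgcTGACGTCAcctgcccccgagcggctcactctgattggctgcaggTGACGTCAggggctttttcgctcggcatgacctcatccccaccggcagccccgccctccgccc
Dusp5: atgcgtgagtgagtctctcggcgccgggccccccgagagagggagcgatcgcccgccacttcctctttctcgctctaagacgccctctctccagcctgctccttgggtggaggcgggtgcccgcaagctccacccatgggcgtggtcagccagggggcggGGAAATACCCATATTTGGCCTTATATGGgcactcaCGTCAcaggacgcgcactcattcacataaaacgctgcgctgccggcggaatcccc
Dusp6: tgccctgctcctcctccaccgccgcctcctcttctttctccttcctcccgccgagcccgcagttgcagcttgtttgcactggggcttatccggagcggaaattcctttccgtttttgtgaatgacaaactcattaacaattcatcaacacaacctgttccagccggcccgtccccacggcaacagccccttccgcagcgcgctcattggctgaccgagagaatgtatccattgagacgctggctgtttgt

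The other motifs were more frequent or absent. TGACG, the core that also lies within each full cAMP response element, was in 5 of the 8 windows (Dusp1, Dusp2, Dusp5, Dusp8 and Dusp16) and in 20.8% of all windows. The ETS core CCGGAA was in 1, that of Spry2, after the start, and in 14.9% of all. TGANTCA, the AP-1 site, and TATAAA, the TATA box, were in 0 of the 8 and in 7.81% and 13.6% of all. Among genes with a promoter entry, the full cAMP response element was held by 11 of 162 genes called higher at 1 h (6.79%), 5 of 308 called lower (1.62%) and 450 of all 16990 (2.65%). With all members of the set left out, 9 of 157 genes called higher at 1 h held it, and 448 of all 16982. Whether these shares differ was not tested. After washout the shares of higher and lower genes were close, at 3.54% and 3.33% against control and 3.74% and 3.49% against 1 h. Each of these lay above the 2.65% of all genes, so called genes of either direction could exceed that share. These shares are descriptions of letters in a window and show no binding.

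Dusp1 (MKP-1), a nuclear phosphatase that acts mainly on p38 and JNK and is a classic immediate-early gene, rose most of the 10 at 1 h. Its level was 10.94, 10.91 and 11.04 on the control arrays, 11.93, 11.88 and 11.96 at 1 h, and 10.62, 10.64 and 10.69 after washout. The 3 groups did not overlap, with washout lowest and 1 h highest. The log2 difference at 1 h was 0.96 ± 0.048 (SE; limma adjusted p 6.2e-06), or 1.94-fold, the 27th highest of all 22180 genes. Between 1 h and washout the level fell by 1.27 ± 0.048 (log2, SE; adjusted p 1.3e-07), or 2.41-fold, the 57th lowest difference of all genes. The washout group ended below control, at a log2 difference of -0.31 ± 0.048 (SE; adjusted p 8.4e-04). In a bulk sample such as these, a lower level in every cell and fewer cells that express the gene cannot be told apart.

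Dusp4 (MKP-2), a nuclear phosphatase related to Dusp1, went the other way after washout. Control arrays read 9.17, 9.21 and 9.19, B/B 1 h arrays 9.39, 9.37 and 9.39, and washout arrays 10.03, 10.01 and 10.12. All 3 groups were apart, in the order control, 1 h, washout. The difference between washout and control was 0.86 ± 0.042 (log2, SE; limma adjusted p 8.6e-07), or 1.82-fold, and that between washout and 1 h was 0.67 ± 0.042 (adjusted p 3.1e-06). At 1 h the difference was 0.19 ± 0.042 (adjusted p 0.0441) and lay close to the threshold. Leaving out washout replicate 1 or 2, or any array of the control or B/B 1 h group, ended that call, as did centring array medians or fitting only the 2 groups, with adjusted p up to 0.125 (0.00602 to 0.125 over the alternatives).

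Dusp2 (PAC-1) and Dusp5, the other nuclear phosphatases of the set, were not called at 1 h. Dusp5, which is specific for ERK and holds the CArG boxes shown above, read 11.05, 11.05 and 11.07 in control, 11.05, 11.01 and 11.01 at 1 h, and 10.95, 10.83 and 10.94 after washout. Washout arrays lay below all others. Its difference was -0.03 at 1 h (95% interval -0.14 to 0.07; limma adjusted p 0.731). Against control it fell by 0.15 ± 0.045 after washout (log2, SE; adjusted p 0.0396), a call that ended when any control array or replicate 2 or 3 of either treated group was left out, or with quantile normalization, array medians centred or only the 2 groups fitted (0.00351 to 0.130 over the alternatives). The 3-group F-test had an adjusted p of 0.0725 for Dusp5.

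Dusp2, best known from activated lymphocytes, had the widest spread of the 10 genes in the control group. It read 6.40, 6.50 and 6.82 in control, 6.36, 6.36 and 6.45 at 1 h, and 6.26, 5.94 and 6.22 after washout. Control and 1 h arrays overlapped, and washout arrays lay below both. After washout Dusp2 fell by 0.43 ± 0.11 against control (log2, SE; limma adjusted p 0.0173), which was not called without washout replicate 2 (adjusted p 0.0636) or without moderation (0.00891 to 0.0684 over the alternatives). At 1 h the difference was -0.18 (95% interval -0.44 to 0.07; adjusted p 0.420), and between 1 h and washout it was -0.25 (adjusted p 0.138). Without control replicate 3 the first was -0.059, and without washout replicate 2 the second was -0.15, both again not called.

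Dusp6 (MKP-3), the cytoplasmic phosphatase selective for ERK, stayed above control at both times. Its level was 11.16, 11.10 and 11.14 in control, 11.62, 11.63 and 11.65 at 1 h, and 11.49, 11.48 and 11.52 after washout. No group overlapped another. The rise at 1 h was 0.50 ± 0.039 (log2, SE; limma adjusted p 1.4e-04), or 1.41-fold, and the difference from control after washout was 0.36 ± 0.039 (adjusted p 9.4e-05), or 1.28-fold. With both Dusp6 probe sets averaged these differences were 0.32 (adjusted p 0.0119; 7.6e-08 to 0.0119 over the alternatives) and 0.23 (adjusted p 0.00956; 1.8e-07 to 0.00956), still called. From 1 h to washout Dusp6 fell by 0.14 ± 0.039 (adjusted p 0.0253). This fall was not called with quantile normalization, with array medians centred, with probe sets averaged, or without washout replicate 1 or 2 or 1 h replicate 2 or 3 (adjusted p 4.3e-04 to 0.224 over the alternatives). Dusp6 alone among the 10 genes had a further probe set with that symbol. It read 3.13, 3.27 and 3.22 in the means of control, 1 h and washout, above only 11.6% of probe sets with 1 symbol, and was called in 0 of the 3 comparisons (adjusted p 0.333 at 1 h when every probe set was tested on its own).

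**Figure D2:**
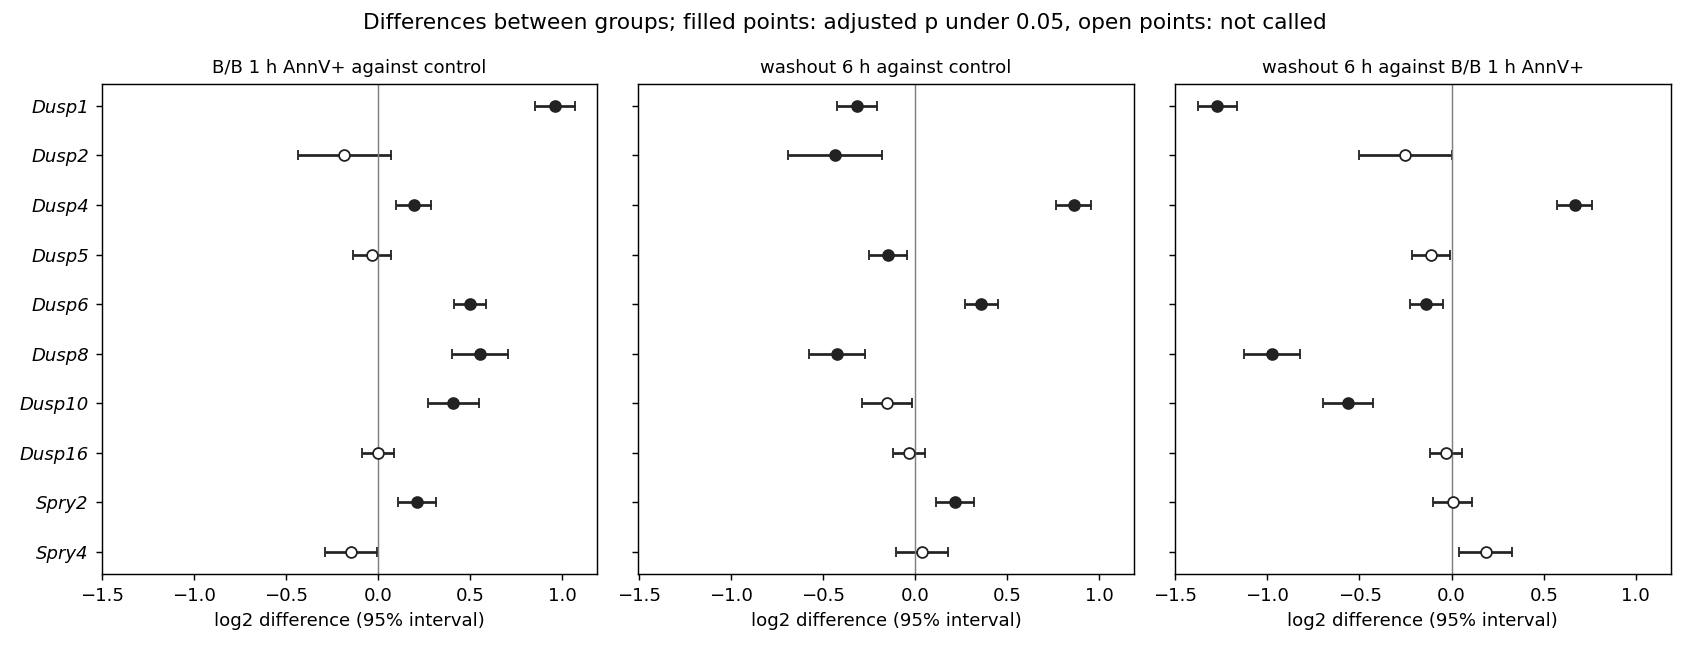
Log2 difference (x axis) of each gene (y axis) in the 3 comparisons, with 95% intervals from limma; filled points have an adjusted p under 0.05. At 1 h the filled points lie to the right of 0, from 0.19 to 0.96, and after washout Dusp4 at 0.86 and Dusp2 at -0.43 mark the ends of the range against control.

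Phosphatases that prefer JNK and p38 are encoded by Dusp8, Dusp10 and Dusp16, and 2 of these 3 genes were called higher at 1 h. Dusp8 read 6.37, 6.36 and 6.37 in control, 6.99, 6.92 and 6.85 at 1 h, and 5.99, 5.79 and 6.05 after washout. As for Dusp1, 1 h arrays were highest and washout arrays lowest, without overlap. Control replicates 1 and 3 of Dusp8 hold the same deposited value, and the control SD was 0.0025 against 0.069 at 1 h and 0.14 after washout. The moderated SE was 0.068 for each comparison. Dusp8 rose by 0.55 at 1 h (log2; limma adjusted p 0.00244), or 1.47-fold, and fell by 0.98 from 1 h to washout (adjusted p 5.4e-06), or 1.97-fold. After washout it fell by 0.42 against control (adjusted p 0.00114). Dusp1 and Dusp8 were the members called higher at 1 h and lower in both comparisons of washout.

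Dusp10 (MKP-5) rose at 1 h and fell between 1 h and washout. It read 9.23, 9.22 and 9.11 in control, 9.47, 9.64 and 9.67 at 1 h, and 8.9999, 9.07 and 9.02 after washout. All B/B 1 h arrays lay above all others. The difference at 1 h was 0.41 ± 0.061 (log2, SE; limma adjusted p 0.00762), or 1.33-fold, and from 1 h to washout Dusp10 fell by 0.56 ± 0.061 (adjusted p 8.7e-05). Against control the washout difference was -0.15 (95% interval -0.29 to -0.01; adjusted p 0.107), although the groups did not overlap, and it was called without B/B 1 h replicate 1 (adjusted p 0.0447; 0.0447 to 0.255 over the alternatives).

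Dusp16 (MKP-7), which shuttles between nucleus and cytoplasm, was called in 0 of the 3 comparisons. It read 8.08, 8.09 and 8.12 in control, 8.09, 8.09 and 8.12 at 1 h, and 8.09, 8.03 and 8.09 after washout, and 4 of the 9 arrays hold the same deposited value. The groups overlapped throughout. The 95% interval of its difference at 1 h was -0.09 to 0.09, and that of washout against control -0.12 to 0.06, with limma adjusted p of 0.991 and 0.663. By limma at unadjusted p under 0.05 it was likewise called in 0 comparisons, and its lowest unadjusted p was 0.451.

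The Sprouty genes differed from each other in their calls at 1 h. Spry2 read 9.25, 9.31 and 9.27 in control, 9.45, 9.48 and 9.53 at 1 h, and 9.54, 9.42 and 9.51 after washout. Control arrays lay below the other 6, which overlapped. Spry2 rose by 0.21 ± 0.047 at 1 h (log2, SE; limma adjusted p 0.0475) and stood 0.22 ± 0.047 above control after washout (adjusted p 0.00630), with a difference of 0.01 between those times (95% interval -0.10 to 0.11). Each of the 9 arrays, left out in turn, ended the call at 1 h, at an adjusted p of at most 0.136, and so did centring array medians, a robust prior, no moderation and only 2 groups (0.00856 to 0.136 over the alternatives), while the call after washout held under all 20 alternatives.

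Spry4 was not called in any comparison, and its values ran the other way at 1 h. It read 8.55, 8.43 and 8.55 in control, 8.29, 8.36 and 8.44 at 1 h, and 8.53, 8.46 and 8.66 after washout. Washout arrays lay above all B/B 1 h arrays, and control overlapped both. The log2 difference at 1 h was -0.15 (95% interval -0.29 to -0.0034; limma adjusted p 0.260), the washout difference from control was 0.04 (adjusted p 0.751), and washout lay 0.18 above 1 h (adjusted p 0.0574). The last was called without B/B 1 h replicate 3 or washout replicate 2, with array medians centred, with the lowest 30% of genes left out and with a variance trend (adjusted p 0.0311 to 0.188 over the alternatives). Whether the differences of Spry2 and Spry4 at 1 h differ from each other was not tested.

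**Figure D3:**
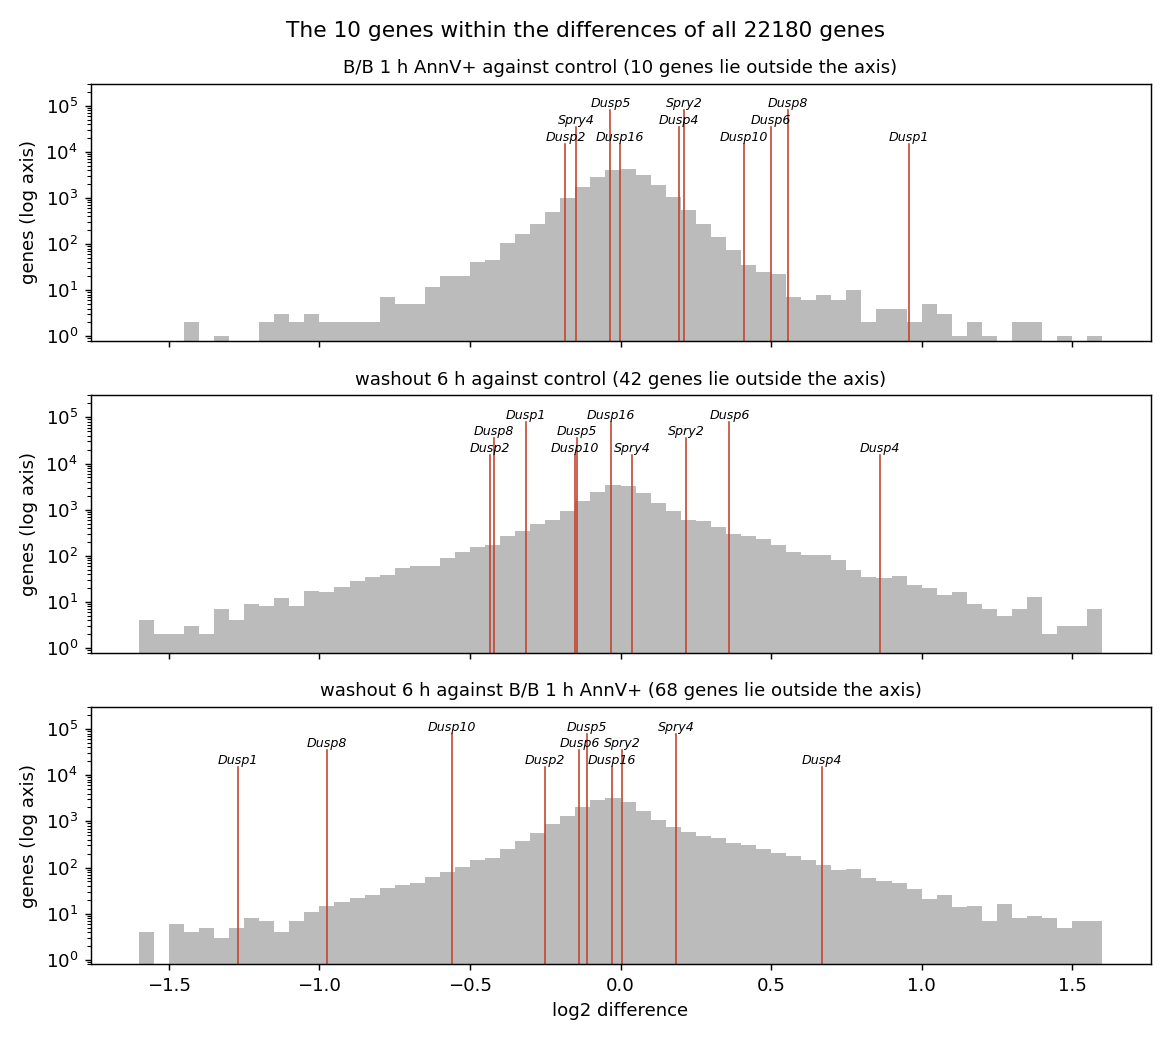
Number of genes (y axis, log scale) by log2 difference (x axis, bins of equal width) for all 22180 genes in each comparison, with a line at the value of each of the 10 genes. At 1 h Dusp1 at 0.96, Dusp8 at 0.55, Dusp6 at 0.50 and Dusp10 at 0.41 lie in the thin right tail, and in the comparison of washout with 1 h Dusp1 at -1.27 and Dusp8 at -0.98 lie in the left.

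Groups that do not overlap were also counted. At 1 h, 7 of the 10 genes did not overlap with control, where 21.3% of all genes did not overlap. They were the 6 called genes, which were higher, and Dusp5, which was lower and not called. Dusp5 was close to a tie, with a lowest control value of 11.047 and a highest 1 h value of 11.046. After washout 8 of the 10 did not overlap with control, against 38.0% of all genes, and 8 did not overlap with 1 h, against 39.6%. Dusp16 overlapped in all 3 comparisons. The median absolute log2 difference of the 10 genes was 0.20 at 1 h, 0.27 for washout against control and 0.22 for washout against 1 h, and that of all genes was 0.073, 0.094 and 0.11.

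Other dual-specificity phosphatases had 0 higher and 2 lower of 15 measured genes at 1 h, also by limma at unadjusted p under 0.05. They were Dusp7, a cytoplasmic ERK phosphatase close to Dusp6, which fell by 0.24 ± 0.049 (log2, SE; limma adjusted p 0.0339), and Dusp3, a small atypical phosphatase, which fell by 0.20 ± 0.044 (adjusted p 0.0466). The median of the 15 was 0.01. Which phosphatases were placed in the set and which in this list was decided with earlier results known. A contrast between the groups of phosphatases is therefore not a test. Dusp7 read 10.47 ± 0.050 after washout and 10.47 ± 0.051 in control (log2 level, SD, n = 3), whereas Dusp3 fell by 0.36 after washout. After washout against control, 3 were higher and 3 lower of the 15, with Dusp11, an RNA phosphatase of this family, at 0.49, and Dusp12 at -0.39 (log2 difference). Dusp9, a further ERK phosphatase, stood 0.41 and Dusp22 0.33 above 1 h after washout.

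Other Sprouty, Spred and Sef genes had 0 higher and 0 lower of 6 at 1 h, and 1 and 1 by limma at unadjusted p under 0.05, Spry3 at 0.16 and Spred1 at -0.16. After washout 3 were higher than control and 2 lower. Spred2 and Spred1, membrane-bound inhibitors of the step from RAS to RAF, rose by 0.46 ± 0.047 and 0.31 ± 0.044 (log2, SE; highest limma adjusted p 4.8e-04). Against control after washout, Spred3 stood at -0.29 and Spry3 at -0.22. Between 1 h and washout Spry3 stood at -0.37. Il17rd, which encodes Sef, was the remaining gene that was higher after washout, at 0.28.

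**Figure D4:**
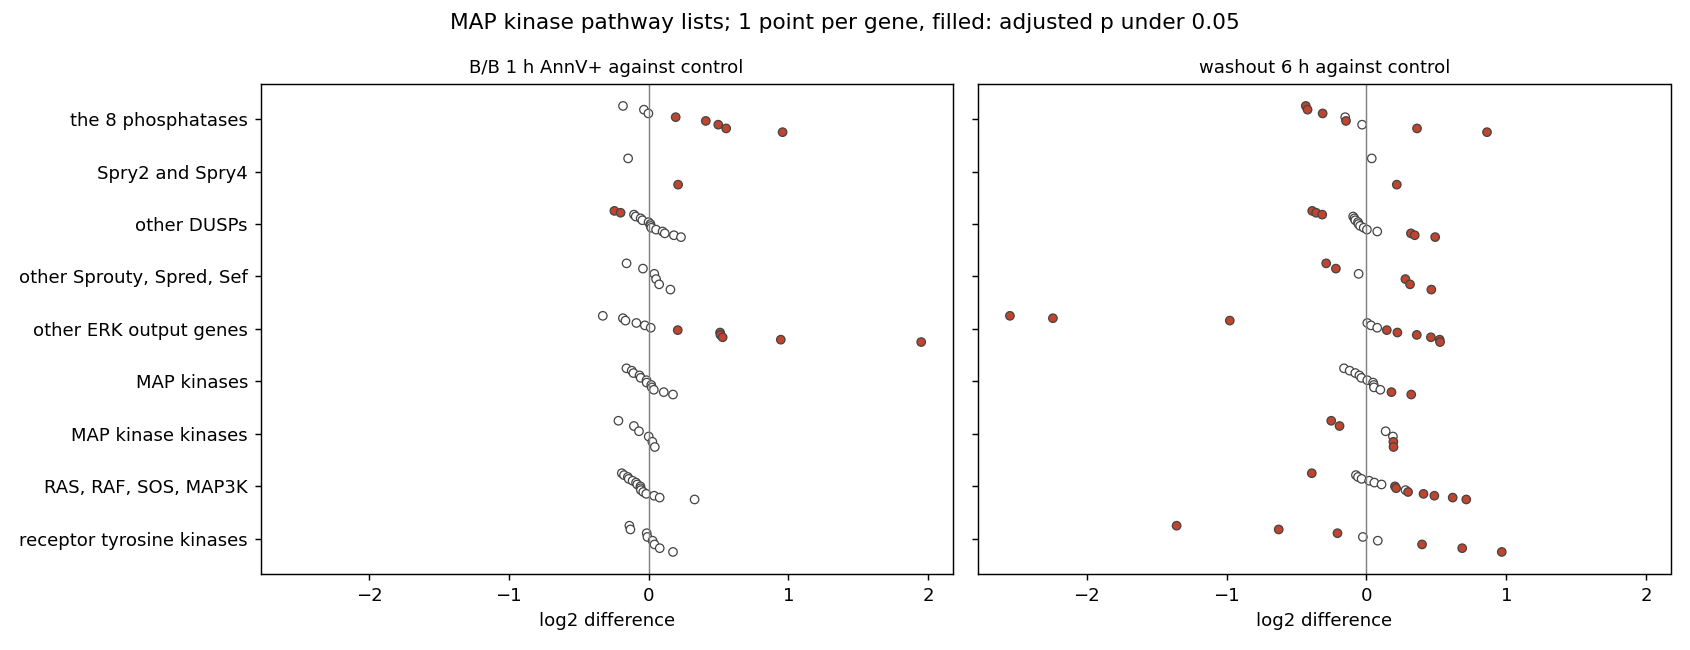
Log2 difference (x axis) of every measured gene in the MAP kinase pathway lists (y axis), at 1 h (left) and after washout (right) against control; filled points have an adjusted p under 0.05. At 1 h filled points are found in the 10 feedback genes, in other dual-specificity phosphatases (2 lower) and in other ERK output genes (6 higher), and in 0 genes of the kinase and receptor lists.

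Of 12 other measured output and feedback genes of ERK signalling, 6 were called higher, 0 lower and 6 not called at 1 h (6 higher and 3 lower by limma at unadjusted p under 0.05). Fos and Egr1, immediate-early transcription factors, rose by 1.95 ± 0.082 and 0.95 ± 0.050 (log2, SE; highest limma adjusted p 9.8e-06), and Myc, a growth-promoting transcription factor, rose by 0.53. After washout 6 were higher and 3 lower than control. Egr1 fell by 2.55, Fos by 2.24 and Ier3, a survival gene induced by ERK and NF-kB, by 0.98 (log2). The 3 genes lower at unadjusted p at 1 h were the ETS factors Etv1 at -0.18, Etv4 at -0.33 and Etv5 at -0.17, chosen after their values were seen. After washout Etv1 stood 0.53 and Etv5 0.52 above control and were called, while Etv4 stood at 0.0062 and was not called.

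The kinases themselves had 0 calls at 1 h. This held for 12 MAP kinases, 6 MAP kinase kinases, 15 genes of the RAS, RAF and MAP3 kinase list and 8 receptor tyrosine kinases, with list medians from -0.06 to 0.01. By limma at unadjusted p under 0.05 the higher and lower counts were 1 and 0, 0 and 2, 1 and 4, and 1 and 2 in that order of lists. After washout against control, 2 MAP kinases were higher and 0 lower, led by Nlk, an atypical MAP kinase, at 0.32. Of the MAP kinase kinases 2 were higher and 2 lower, with Map2k1, the ERK kinase MEK1, at 0.19 and Map2k2, MEK2, at -0.25 (log2 difference). The RAS, RAF and MAP3 kinase list had 7 higher and 1 lower, with Sos2 and Sos1, which load RAS with GTP, at 0.71 and 0.49 and the scaffold gene Ksr1 at 0.62. Receptor genes had 3 higher and 3 lower, with Fgfr1 at 0.97 and Pdgfra at 0.68 and with Pdgfrb, which fell by 1.36 (log2).

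Genes with the most similar profile over the 9 arrays were sought among the genes past the 3-group F-test. These correlations describe 9 arrays that fall into 3 groups. For Dusp1 they were Nfkbiz, a nuclear IkB-like co-regulator, at a Pearson r of 0.997, Klf6, a zinc finger transcription factor, at 0.996 and the microRNA gene Mir1938 at 0.994. For Dusp6 they were Adamts1, a secreted metalloprotease, at 0.980, Rgs2, a brake on G protein signalling, at 0.978 and Phlda1, at 0.976. Phlda1 had also been listed among ERK output genes, and its differences were 0.51 at 1 h and 0.36 after washout, beside 0.50 and 0.36 for Dusp6. This likeness follows in large part from the choice of Phlda1 by its correlation with Dusp6. For Spry2 they were Prokr1, a prokineticin receptor, at 0.955, Nhsl1 at 0.948 and Ptgs2, the inducible cyclooxygenase, at 0.941.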

How the data were processed

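The values analysed were log2 probe set summaries of 9 one-colour Affymetrix arrays as deposited. They were taken as already normalized between arrays because array medians were near equal (4.60 to 4.68). Quantile normalization still changed some calls, so the arrays were not equal in distribution. The authors worked in Partek 6.6, per the submitters' processing notes; how values were summarized is not given in the sources used here. Probe sets with a single symbol numbered 23521 of 41345, and each of 22180 genes was read from its probe set of highest mean. Testing was done with limma 3.58.1 under R 4.3.3 in 1 model of 3 group means (6 residual degrees of freedom, prior 3.38), tested on simulated data. The 10 genes, the pathway lists and the naming rule were chosen with earlier results of these data known. Named were the 10 genes and up to 3 called genes with the largest differences from each pathway list in each comparison. The 3 genes most correlated with Dusp1, Dusp6 and Spry2 were also named, leaving out predicted-gene names. Outside this rule fall Etv1, Etv4, Etv5 and Il17rd, Spry3 and Spred1 at 1 h, and Spry3 after washout against control. These were picked with their values in view. Marker lists were given by counts with examples. Markers, promoter motifs and classes by cell location were descriptions without tests. Alternatives were 11 settings (quantile normalization, array medians centred, the lowest 30% left out, probe sets averaged, a variance trend, a robust prior, no moderation, array weights, 2 groups only, each probe set tested separately, a threshold of 0.01) and each of the 9 arrays left out. The number of arrays limits the precision.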

Additional observations from a re-analysis of the deposited data

How the results depend on the processing

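Of 30 log2 differences (10 genes in 3 comparisons), 18 kept their direction and their side of the threshold under all 20 alternatives. The calls of Dusp1 and Dusp8 in all 3 comparisons were among them. The 6 genes called higher at 1 h became 4 or 5 when Dusp4, Spry2 or both lost the call. Genes called lower after washout against control numbered 4, and 2 at adjusted p under 0.01, with 2 to 5 when 1 array was left out, the lowest without washout replicate 2. The 1 gene called higher between 1 h and washout became 2, with Spry4, when array medians were centred, the lowest 30% of genes were left out or a variance trend was used, and 1 to 2 when 1 array was left out. Directions turned only for differences that were not called: Dusp16 at 1 h went from -0.00125 to 0.050 with quantile normalization and ranged from -0.012 to 0.012 when 1 array was left out, and Dusp16 between 1 h and washout went from -0.03 to 0.0094 with array medians centred. When 1 array was left out, Spry4 after washout against control ranged from -0.016 to 0.082 and Spry2 between 1 h and washout from -0.019 to 0.040. Over all genes at 1 h, 224 higher and 418 lower became 276 and 299 with quantile normalization, 368 and 860 with a variance trend, and 137 and 222 with only the 2 groups fitted. A pseudocount was not needed, since the values are logs, and why the values moved was not tested. No paired analysis was possible because the labels give no replicate numbers; those used here follow the listing order and only name the arrays.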
